A study of Mus musculus with 10 samples.

Results

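Genes of the cell cycle and of DNA replication were examined in gastrocnemius, the large calf muscle, of mdx mice and of normal mice. A list of 56 genes was matched to the probe sets that the platform annotation assigns to 1 gene. Of these, 51 genes were found, through 71 probe sets, out of 8251 genes and 10833 such probe sets on the array. The 5 others, Ccnb1, Ccnh, Cdc25b, Trp53 and Tyms, had no probe set annotated to them alone and were not analysed here. The 5 mdx arrays came from male mdx mice aged 16 weeks, a strain that lacks functional dystrophin through a mutation in the dystrophin gene. The 5 control arrays came from normal male mice of the same age. The labels name no strain for the normal mice, no treatment and no batch, and do not state whether each array had a muscle of its own mouse. The p-values therefore cover the spread among these 10 samples only, part of which may be technical.

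Cells divide under the control of cyclin-dependent kinases, which need a cyclin partner to be active and are held back by inhibitor proteins. D cyclins act in early G1, cyclins E and A around the start of DNA synthesis, and B cyclins with Cdk1 in mitosis. Active kinases inactivate the retinoblastoma family of pocket proteins, which frees E2F factors to switch on replication genes. Adult muscle fibres hold nuclei that have left the cycle for good. In injured muscle the dividing cells are satellite cells, the stem cells of muscle, together with fibroblasts, endothelial cells and leukocytes. Myoblasts that leave the cycle to fuse are known to raise the inhibitor Cdkn1a and the cyclin Ccnd3.

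Each probe set has a linear, background-subtracted intensity, so that some values lie below 0. A noise level of 157 was estimated from the values below 0. Tests were run on log2(intensity + 373) with limma over 7612 probe sets, and on that scale the changes of dim genes come out too small. Below 0 were 19.7% to 22.5% of values on mdx arrays and 22.8% to 23.8% on control arrays (exact permutation p = 0.00794, the smallest that 5 arrays against 5 can give, n = 5 each). The 3'/5' ratio of the actin probe sets, a measure of RNA quality, was 1.02 ± 0.0482 in mdx and 1.13 ± 0.0384 in control (SD, n = 5 each, exact permutation p = 0.0159). The same ratio of the Gapdh probe sets was 0.732 ± 0.0413 in mdx and 0.735 ± 0.0595 in control (exact permutation p = 0.921). Correlations between arrays over the probe sets tested were 0.952 to 0.977 within mdx, 0.961 to 0.977 within control and 0.885 to 0.910 between the groups. Dmd, the dystrophin gene on chromosome X, gave 170, 211, 237, 159 and 166 in mdx and 863, 670, 805, 1003 and 643 in control, and fell in mdx (log2 change -1.05, SE 0.10, limma adjusted p = 6.54e-06). The mutation is a base change that leaves most of the sequence of the transcript in place, so this level, though lower in mdx, is no direct check of genotype.

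Of the 51 genes, 38 were bright enough to be tested by their brightest probe set. In mdx muscle 12 of the 38 rose, 2 fell and 24 did not pass the test. Among all 5764 genes tested in the same way, 16.1% rose and 18.6% fell, against 31.6% and 5.26% of the cell cycle genes. The list was chosen with earlier results of these data known, so this difference is described and not tested. The median log2 change was 0.27 over the 38 cell cycle genes and -0.04 over all genes tested. Every mdx array lay above every control array for 7 of the 38 and below every control array for 1, against 12.7% and 13.6% of all genes tested. Cdk1, Stmn1 and Hmgb2 passed the filter only through their mdx arrays, so that they could enter the test only as genes higher in mdx. By that filter all 3 also had to show no overlap, and they are among the 7. Without these 3, 9 of 35 rose (25.7%). The 12 that rose were Ccnd3, Cdkn1a, Stmn1, Cdk1, Pcna, Hmgb2, Gadd45a, Ccnb2, Ccnd1, Rb1, Rrm2 and Mad2l1, with log2 changes between 1.26 and 0.26. Ccng1 and Aurka fell, but the change of Ccng1 turned to 0.10 and that of Aurka shrank to -0.12 when arrays were scaled to the hybridization controls, under which neither was called. That scaling called 25 of the cell cycle genes higher and 0 lower by limma, and 96.6% of all its calls were higher, against 47.1% with the deposited scaling.

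**Figure D1:**
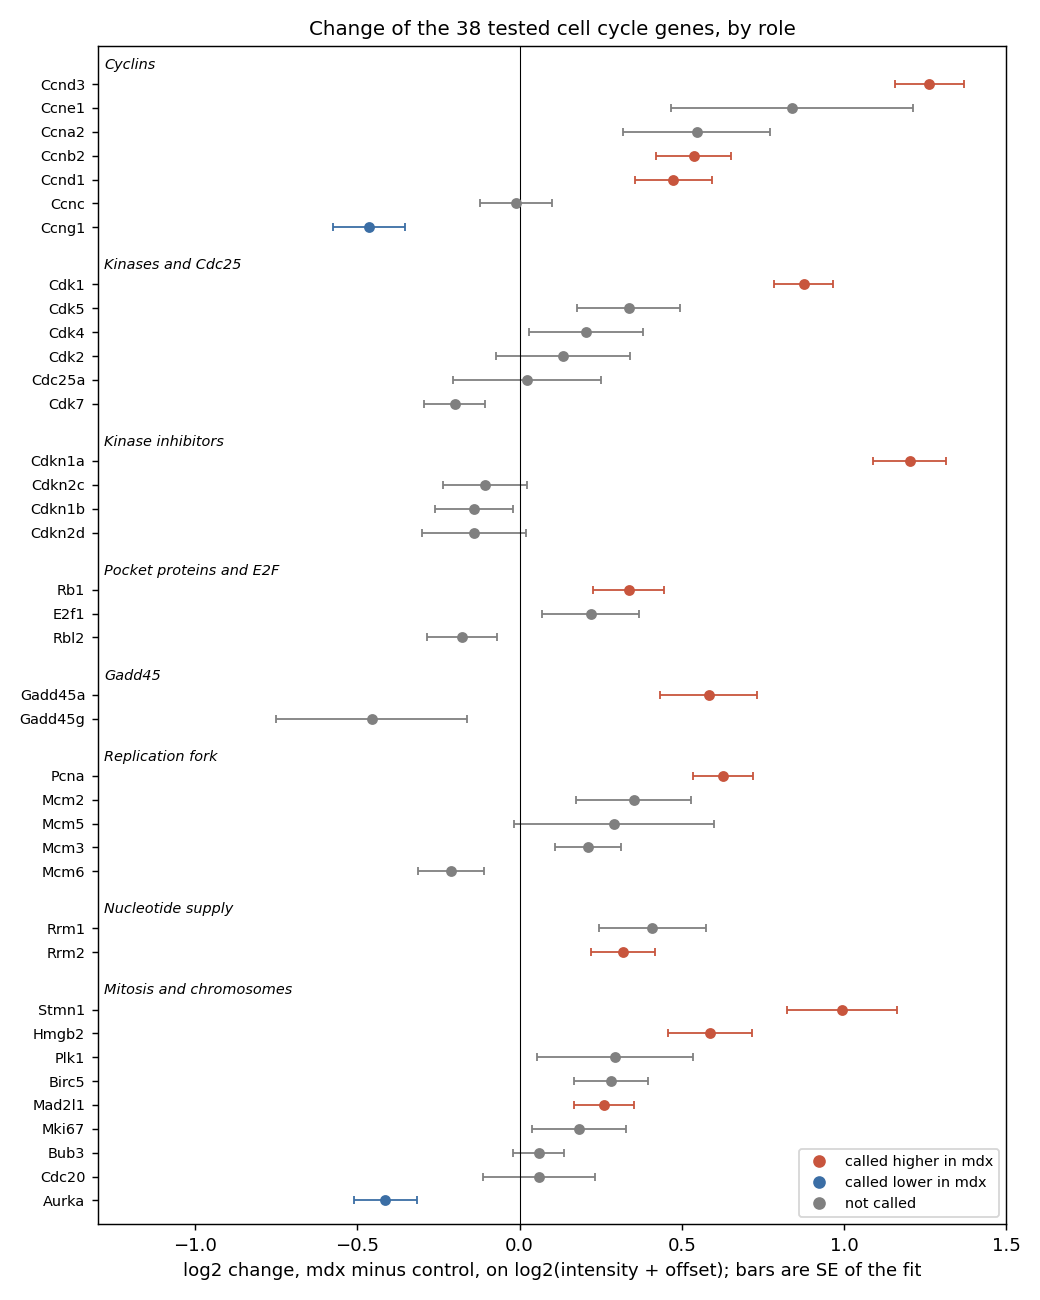
Log2 change, mdx minus control, of the 38 cell cycle genes tested, grouped by role, with the SE of the limma fit as bars. Red points passed the test as higher (12), blue as lower (2) and grey did not pass, and the estimates run from -0.47 for Ccng1 to 1.26 for Ccnd3. The Ccng1 estimate was 0.10 when arrays were scaled to the hybridization controls.

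Markers of several cell types also differed between the groups, some higher in mdx and some lower. The counts that follow stand beside 16.1% of all genes tested that rose and 18.6% that fell. All 11 macrophage markers listed rose, and their summed intensity was 52309 to 72126 in mdx and 3169 to 6439 in control, with none at noise on every array. Among 6 tested markers of satellite cells and myoblasts 3 rose, of which Vcam1 passed the filter only through its mdx arrays. The sum over the 7 with a probe set was 5913 to 8356 in mdx and 2511 to 3314 in control. Met was below noise on all arrays. Of 7 fibroblast markers 5 rose and 2 fell, with sums of 74189 to 86239 in mdx and 41409 to 54448 in control. Of 5 tested lymphocyte markers, Jchain rose and Cd4 and Ms4a1 fell. Lymphocyte markers summed to 1491 to 1901 in mdx and 1660 to 3148 in control, and Cd3d, Cd3e, Cd3g and Cd8a were below noise on all 10 arrays. Markers of mature fibres fell in 6 of 8 cases, with sums of 143047 to 208846 in mdx and 183138 to 292509 in control. Of 7 endothelial markers 0 rose and 2 fell by limma (0 and 3 at an unadjusted p under 0.05), with sums of 4252 to 5385 in mdx and 5890.1 to 7178 in control. Of 3 erythroid markers 2 fell, with sums of 11854 to 20030 in mdx and 22024 to 38538 in control. The part of these marker differences in the changes below was not tested. In pieces of whole muscle, more cells of a type and more RNA per cell cannot be told apart.

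Among the cyclins, 3 rose, 1 fell and 3 did not pass, and Ccnd2 was too dim to test. Over all genes tested 16.1% rose and 18.6% fell. Ccnd3, on chromosome 17, encodes cyclin D3, a G1 cyclin. Its intensities were 1101, 1207, 1111, 1274 and 1256 in mdx and 404, 262, 237, 163 and 349 in control. The groups were far apart, and the mean was 4.21 times as high in mdx, at 1190 ± 80.5 against 283 ± 94.8 (SD, n = 5 each; log2 change 1.26, SE 0.11, limma adjusted p = 2.16e-06). Ccnd1, the cyclin D1 gene on chromosome 7, gave 904, 1092, 1111, 1302 and 1471 in mdx and 906, 599, 686, 874 and 637 in control. Only mdx replicate 1 fell among the control values, and the mean was 1.59 times as high in mdx (log2 change 0.47, SE 0.12, limma adjusted p = 0.00777). A dimmer probe set of Ccnd1 also rose, at 179, 461, 403, 371 and 345 in mdx and 155, 85.7, 223, 128 and 23.7 in control (log2 change 0.55, limma adjusted p = 0.00701). The third D cyclin, Ccnd2, was read below 0 on all 10 arrays, at -204 ± 37.0 in mdx and -325 ± 41.5 in control, so no level could be given.

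Ccnb2, on chromosome 9, encodes cyclin B2, a mitotic partner of Cdk1. It measured 635, 1096, 1013, 1179 and 893 in mdx and 547, 598, 548, 444 and 562 in control. No mdx array reached down to the control range, and the mean was 1.78 times as high (log2 change 0.54, SE 0.12, limma adjusted p = 0.00341). Ccna2, cyclin A2, which acts in S phase and G2, ran from 486 to 887 in mdx with a median of 621, and gave 457, 351, -116, 421 and 660 in control. It did not pass (log2 change 0.55, SE 0.23, limma adjusted p = 0.0842), and passed without control replicate 5 (adjusted p = 0.0366). Ccne1, cyclin E1, which acts at the G1 to S transition, varied widely in control, where it was -699 and -1432 on replicates 1 and 3 and 772 to 989 on the other arrays. In mdx it lay between 541 and 1250, and the log2 change of 0.84 had an SE of 0.37 (limma adjusted p = 0.106), with a call under 2 alternatives, scaling to the hybridization controls (adjusted p = 0.00736) and the replicate block (adjusted p = 0.021). Ccnc, a cyclin of the transcription machinery, had nearly equal means of 183 ± 39.2 in mdx and 191 ± 79.8 in control.

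Ccng1, on chromosome 11, encodes cyclin G1, a target of the p53 tumour suppressor that is not needed to drive the cycle. It gave 2578, 2248, 2778, 3377 and 2265 in mdx and 3891, 4197, 3156, 3519 and 4141 in control. Only mdx replicate 4 fell among the control values, and the mean was 0.701 times that of control (log2 change -0.47, SE 0.11, limma adjusted p = 0.00594). The fall depends on the scale: with arrays set equal on the bacterial transcripts added at hybridization, the change of all probe sets had a median of 0.35, and Ccng1 stood at 0.10, which is 0.25 below that median.

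Cdk1 was the kinase that rose. Cdk1, on chromosome 10, encodes the kinase of mitosis. It gave 363, 358, 403, 246 and 319 in mdx and -89.0, -147, 69.8, -104 and -53.8 in control. All mdx arrays were above noise and all control arrays below it, so that Cdk1 was at least 2.13-fold higher, taking the noise level for control (log2 change 0.88, SE 0.09, limma adjusted p = 1.24e-05). The promoters of Cdk1 and Ccnb2 are shown because both are mitotic genes that rose. The groups overlapped for neither. Cdk1 passed the filter only through its mdx arrays, so it could be tested only as higher with no overlap. The sequences are from RefSeq on build GRCm38.p6 and end at the last base before the annotated start of transcription. Capitals mark the E2F sites TTTCGCGC, TTTGGCGC or TTTCCCGC, the cell cycle homology element TTTGAA and the box CCAAT, each on either strand, so that ATTGG is a CCAAT box on the opposite strand. The Cdk1 stretch is chr10:69352913-69353052 and the Ccnb2 stretch chr9:70421555-70421654, both on the minus strand.
Cdk1: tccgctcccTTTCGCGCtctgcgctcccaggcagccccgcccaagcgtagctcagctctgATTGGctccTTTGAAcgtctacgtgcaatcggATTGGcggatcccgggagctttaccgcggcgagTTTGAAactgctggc
Ccnb2: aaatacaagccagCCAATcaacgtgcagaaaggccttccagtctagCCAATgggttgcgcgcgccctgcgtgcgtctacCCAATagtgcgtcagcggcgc
In the 140 bases of Cdk1 stand an E2F site, 2 CCAAT boxes and 2 TTTGAA elements. The 100 bases of Ccnb2 hold 3 CCAAT boxes, which begin 87, 54 and 21 bases before the start.

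The other kinases did not pass by their brightest probe set. Cdk4, the partner of D cyclins, gave means of 3017 ± 764 in mdx and 2576 ± 684 in control (log2 change 0.21, limma adjusted p = 0.407). Its dimmer probe set read 532, 761, 682, 787 and 938 in mdx and 469, 492, 487, 328 and 454 in control. That probe set rose with no overlap (log2 change 0.44, SE 0.11, limma adjusted p = 0.0083). Both estimates of Cdk4 were positive, their difference was not tested, and the median of its probe sets passed (log2 change 0.32, limma adjusted p = 0.0425). Cdk2, the partner of cyclins E and A, averaged 628 ± 181 in mdx and 562 ± 275 in control. Cdk5, best known from neurons, averaged 544 ± 195 and Cdk7, the kinase that activates the other kinases, 280 ± 64.8 in mdx, against 350 ± 132 and 375 ± 43.1 in control. Neither passed, with log2 changes of 0.34 and -0.20 (limma adjusted p = 0.126 and 0.124). Cdc25a, the phosphatase that activates the kinases in G1 and S, spread from 108 to 666 in mdx and from 201 to 687 in control (log2 change 0.02, SE 0.23). Cks1b, a small subunit of the kinase complexes, was too dim for the filter and gave 99.7, 210, 132, 234 and 42.9 in mdx and -355, -379, -572, -354 and -295 in control. The groups of Cks1b lay apart, with 2 mdx arrays and 0 control arrays above noise. With no filter on dim probe sets Cks1b rose (log2 change 0.46, limma adjusted p = 0.0086), where 10.3% of all probe sets of 1 gene rose.

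**Figure D2:**
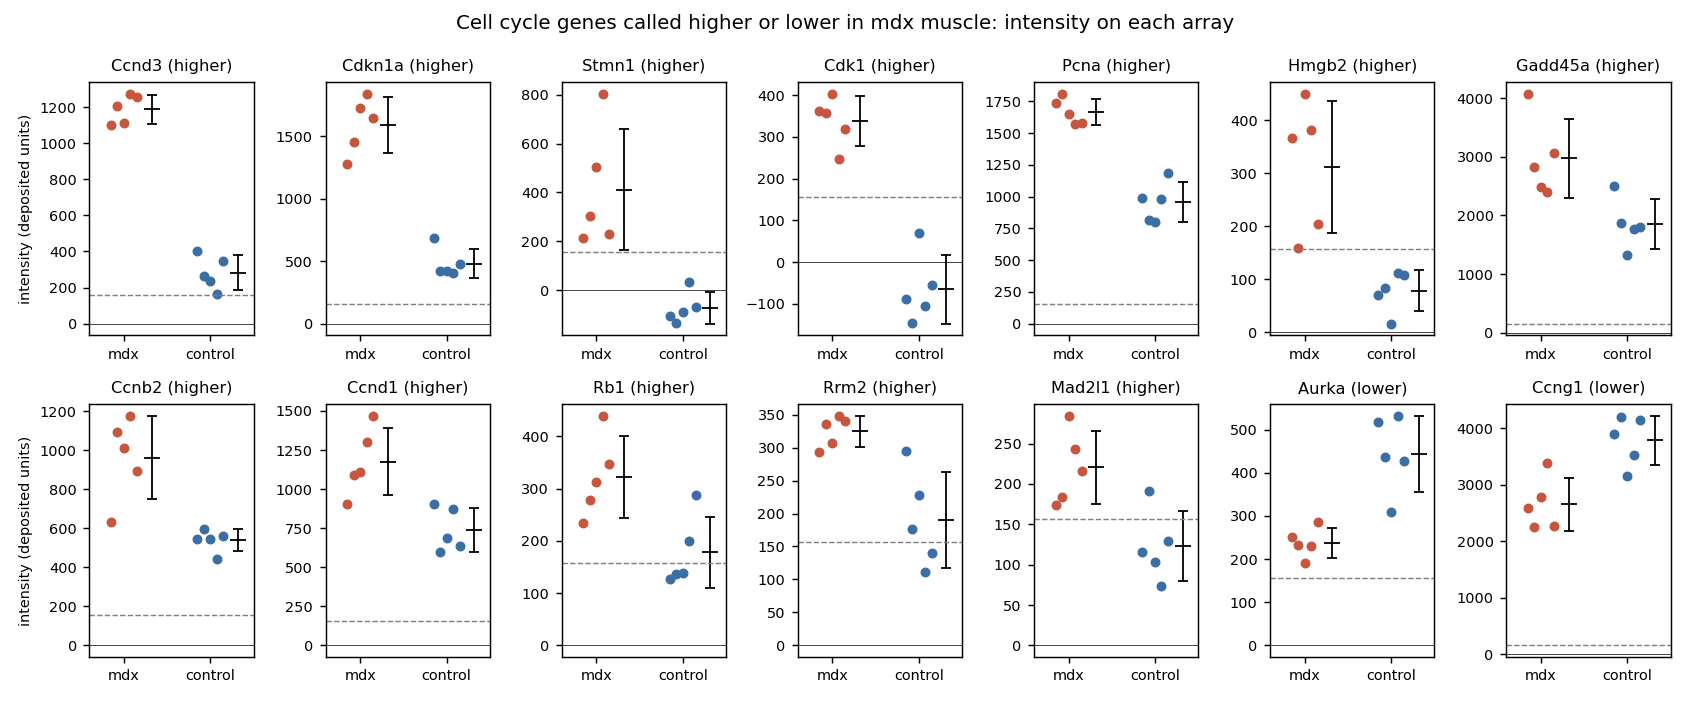
Deposited intensity on each array for the 12 cell cycle genes called higher and the 2 called lower, mdx left of control. Points are arrays, black bars the mean and SD of 5, and the dashed line the noise level of 157. Cdk1, Stmn1 and Hmgb2 lie below it on all control arrays and above it on all mdx arrays. Ccng1 was not lower (0.10) when arrays were scaled to the hybridization controls.

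Of the 5 kinase inhibitors listed, Cdkn1a rose, 3 did not pass and Cdkn2b was too dim to test. By comparison, 16.1% of all genes tested rose and 18.6% fell. Cdkn1a, on chromosome 17, encodes p21, an inhibitor of cyclin-dependent kinases induced by p53 and during muscle differentiation. It gave 1278, 1451, 1725, 1841 and 1649 in mdx and 684, 419, 419, 402 and 478 in control. The lowest mdx array was well above the highest control array, and the mean was 3.31 times as high, at 1589 ± 224 in mdx and 480 ± 117 in control (SD, n = 5 each; log2 change 1.20, SE 0.11, limma adjusted p = 4.95e-06). The other probe set of Cdkn1a was above noise on 1 mdx array and on 0 control arrays, and was too dim to test. The upstream stretch of Cdkn1a, chr17:29093659-29093768 on the plus strand, is shown beside that of Pcna, chr2:132253181-132253300 on the minus strand, because these 2 genes rose with no overlap and their proteins bind each other. Here capitals also mark the Sp1 box GGGCGG.
Cdkn1a: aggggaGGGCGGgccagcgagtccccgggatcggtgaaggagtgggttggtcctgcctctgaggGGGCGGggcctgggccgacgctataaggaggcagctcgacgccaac
Pcna: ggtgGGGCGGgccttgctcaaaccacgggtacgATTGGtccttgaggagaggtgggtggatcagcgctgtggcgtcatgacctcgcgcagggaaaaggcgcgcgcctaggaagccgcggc
The Cdkn1a stretch holds 2 Sp1 boxes and none of the other letters searched. That of Pcna holds an Sp1 box and a CCAAT box, and no E2F site of the letters searched.

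Cdkn1b, the inhibitor p27, gave 407, 227, 471, 233 and 254 in mdx and 498, 353, 348, 319 and 400 in control. The groups overlapped, and it did not pass (log2 change -0.14, SE 0.12, limma adjusted p = 0.402). Cdkn2c, the inhibitor p18 of the kinases that pair with D cyclins, gave 1312, 2075, 1633, 1922 and 2473 in mdx and 2113, 1651, 2170, 2139 and 2063 in control. The mdx arrays lay on both sides of control (log2 change -0.11, SE 0.13, limma adjusted p = 0.568). Cdkn2d, the related inhibitor p19, gave 726, 853, 721, 864 and 1190 in mdx and 531, 1064, 1291, 1154 and 1032 in control (log2 change -0.14, SE 0.16, limma adjusted p = 0.542). These estimates of Cdkn1b, Cdkn2c and Cdkn2d turned to 0.15, 0.43 and 0.32 with scaling to the hybridization controls and were called under neither scaling. Cdkn2b, the inhibitor p15, was below noise on every array, at 40.5 ± 52.8 in mdx and -31.9 ± 61.7 in control.

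Outside the members, Cdkn1c, the inhibitor p57, also rose, at 2002, 2181, 3153, 4315 and 2284 in mdx and 1251, 1102, 1207, 906 and 1130 in control. All mdx arrays were above all control arrays (mean ratio 2.49, log2 change 1.04, SE 0.17, limma adjusted p = 0.000396). Cdkn2a, the locus of p16 and p19Arf, was singled out after its values were seen and gave 327, 540, 550, 369 and 366 in mdx and 337, 299, 207, 210 and 264 in control. It rose (log2 change 0.33, limma adjusted p = 0.0335), but the call was lost under 8 of 21 alternatives, 5 of which left out an array. Among 15 tested genes of a further list on G1 and growth control, which includes these inhibitors, 5 rose and 2 fell. The shares over all genes tested were 16.1% and 18.6%. The median log2 change of the list was 0.17. Besides Cdkn1c, the rises with the smallest p were Gas6, a ligand of receptor tyrosine kinases, at 0.63 (limma adjusted p = 0.000117) and Btg1, which slows proliferation, at 0.44 (limma adjusted p = 0.00235). Tob1, a relative of Btg1, fell to 5739 ± 1028 in mdx against 11039 ± 1085 in control (log2 change -0.91, limma adjusted p = 5.55e-05), a call lost under scaling to the hybridization controls (-0.30, adjusted p = 0.0777).

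**Figure D3:**
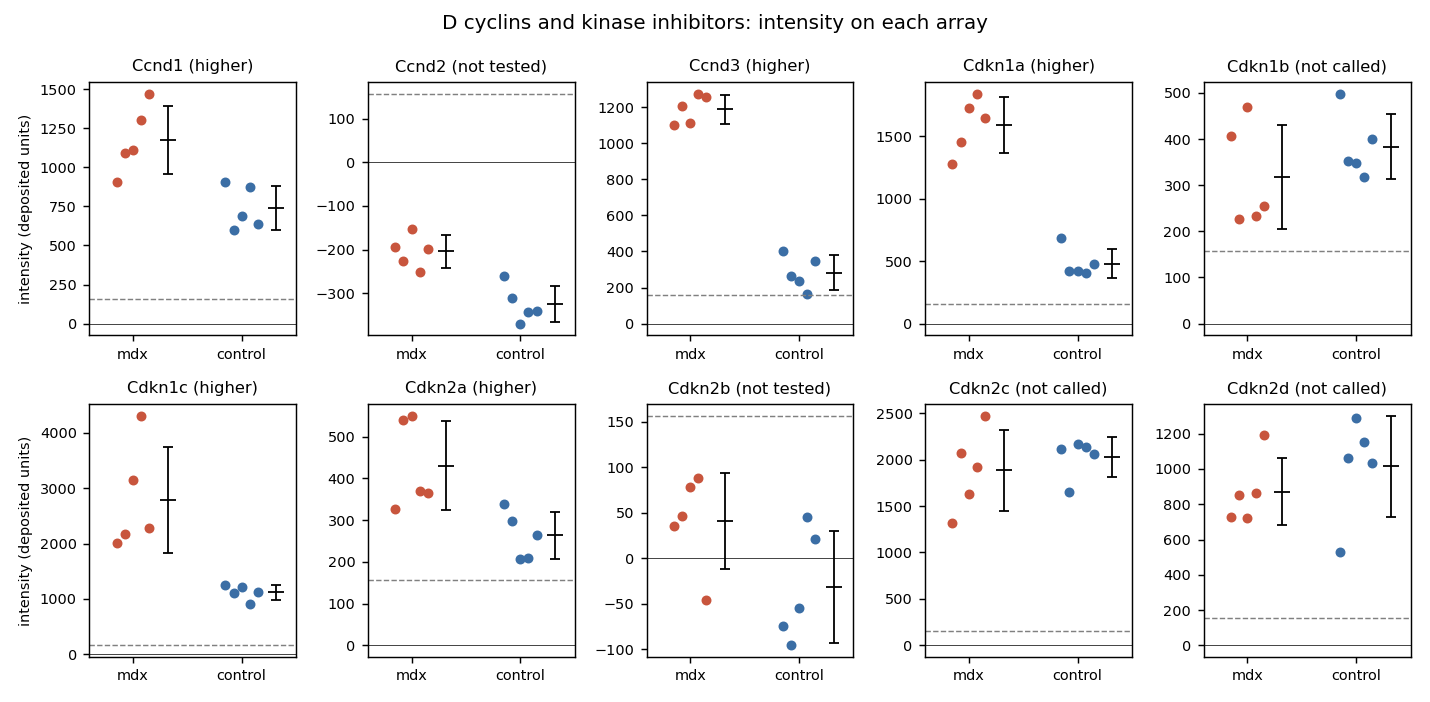
Deposited intensity on each array for the D cyclins and for 7 kinase inhibitors, mdx left of control, with the mean and SD of 5 arrays and the noise level of 157 as a dashed line. Ccnd3, Cdkn1a and Cdkn1c show no overlap between groups, Cdkn1b, Cdkn2c and Cdkn2d overlap, Ccnd2 is below 0 on all arrays and Cdkn2b is below noise on all.

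Of the pocket proteins, Rb1 rose weakly. Rb1, on chromosome 14, encodes the retinoblastoma protein, which holds E2F factors inactive. It gave 234, 278, 313, 440 and 346 in mdx and 127, 137, 139, 200 and 287 in control, with control replicate 5 among the mdx values (log2 change 0.34, SE 0.11, limma adjusted p = 0.032). The call was lost under 8 of 21 alternatives, among them no filter (adjusted p = 0.0518), quantile normalization (0.0644) and 6 of the 10 fits without an array (highest adjusted p = 0.0788). The other probe set of Rb1, too dim to test, averaged 105 ± 42.2 in mdx and 123 ± 31.0 in control. It was above noise on 0 mdx arrays and 1 control array, with a log2 change of -0.05 in the fit with no filter (limma adjusted p = 0.69). The Rb1 relative Rbl2, p130, at 273 ± 87.1 in mdx and 353 ± 37.5 in control, did not pass (limma adjusted p = 0.231). E2f1, the first of the E2F factors, at 186 ± 99.5 in mdx and 105 ± 83.9 in control, did not pass either (limma adjusted p = 0.289). Rbl1, p107, was above noise on 1 mdx array and 0 control arrays and was not tested.

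Gadd45a, on chromosome 6, encodes a stress protein that binds Pcna and Cdkn1a. It gave 4072, 2829, 2486, 2406 and 3063 in mdx and 2506, 1867, 1330, 1774 and 1811 in control. Control replicate 1 fell among the mdx values, and the mean was 1.60 times as high in mdx (log2 change 0.58, SE 0.15, limma adjusted p = 0.00912). Gadd45g, its relative, did not pass, at 1417 ± 470 in mdx and 2245 ± 1350.3 in control (log2 change -0.46, limma adjusted p = 0.264). Cdkn1a and Gadd45a, which rose, and Ccng1, which fell unless arrays were scaled to the hybridization controls, are all known p53 targets. Among 9 tested p53 targets outside the members 2 rose and 3 fell, with a median log2 change of -0.06. With 16.1% of all genes tested rising and 18.6% falling, these counts are too small to set the list apart. Apaf1, which starts caspase activation, was 383 ± 75.9 in mdx and 184 ± 67.0 in control (log2 change 0.44, limma adjusted p = 0.00659), and Sesn1, a stress-induced regulator, rose by 0.41 (limma adjusted p = 0.0195, or 0.0507 without mdx replicate 3). Ei24 fell by 0.39 (limma adjusted p = 0.0104) and stood at 0.16 with scaling to the hybridization controls. Rrm2b, the p53-induced subunit of ribonucleotide reductase, was 278 ± 87.9 in mdx and 492 ± 84.0 in control (log2 change -0.42, limma adjusted p = 0.013), a call lost under the same scaling (adjusted p = 0.506).

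Replication fork genes were mostly dim. Of the 10 listed, 5 were tested, Pcna rose and 4 did not pass, where 16.1% of all genes tested rose and 18.6% fell. Pcna, on chromosome 2, encodes the sliding clamp that holds DNA polymerases on the template. It gave 1739, 1810, 1648, 1572 and 1579 in mdx and 990.5, 818, 800, 981 and 1186 in control. The groups did not overlap, and the mean was 1.75 times as high in mdx, at 1669 ± 103 against 955 ± 157 (SD, n = 5 each; log2 change 0.63, SE 0.09, limma adjusted p = 0.000191).

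Of the Mcm genes, which encode the helicase that opens the DNA, 4 were tested by their brightest probe set and none passed, with positive estimates for Mcm2, Mcm3 and Mcm5 and a negative one for Mcm6. Mcm2 gave 141, 247, 276, 322 and 270 in mdx and 32.6, -172, 128, 410 and 88.3 in control, so that control replicate 4 was the highest of all (log2 change 0.35, limma adjusted p = 0.151, or 0.0064 without that array). Mcm3 averaged 680 ± 93.5 in mdx and 538 ± 93.0 in control (log2 change 0.21, limma adjusted p = 0.13), and its dimmer probe set did not pass either. Mcm6 was above noise on 1 mdx array and on all 5 control arrays, at 153 ± 25.0 in mdx and 241 ± 85.4 in control (log2 change -0.21, limma adjusted p = 0.132). The brighter probe set of Mcm5 read 1785, 2237, 2193, 2058 and 2959 in mdx and 2200, 409, 2305, 2626 and 2263 in control, with control replicate 2 far below the rest (log2 change 0.29, SE 0.31, limma adjusted p = 0.512). Its dimmer probe set read 256, 448, 351, 469 and 68.4 in mdx and -48.6, 95.2, -216, -71.0 and -120 in control. It rose in the fit with no filter (log2 change 0.79, limma adjusted p = 0.0116), where 10.3% of all probe sets of 1 gene rose. Mcm4 and Mcm7 were not tested, with 0 and 1 mdx arrays and 0 and 1 control arrays above noise.

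The polymerase subunit gene Pola1, on chromosome X, was below noise on all arrays but lay at 108, 80.2, 147, 113 and 119 in mdx and -23.7, -48.2, 59.1, 47.9 and 15.9 in control. The groups did not overlap, and the fit with no filter called it higher (log2 change 0.29, limma adjusted p = 0.00392), as it did 10.3% of all probe sets of 1 gene. With every array below noise, no level of Pola1 could be given. The primase gene Prim1 was below noise throughout, and the ligase gene Lig1 was above noise on 1 mdx and 2 control arrays. Of the nucleotide supply genes, Rrm2, on chromosome 12, the regulated subunit of ribonucleotide reductase, gave 293, 335, 307, 349 and 340 in mdx and 294, 176, 228, 112 and 140 in control. The mdx arrays were tightly grouped with a single control array just inside their range (log2 change 0.32, SE 0.10, limma adjusted p = 0.0252). The call on Rrm2 was lost under 7 of 21 alternatives, among them quantile normalization (adjusted p = 0.058) and 5 of the 10 fits without an array (highest adjusted p among these 0.0646). Rrm1, the large subunit, was at 229 ± 135 in mdx and 74.8 ± 96.3 in control and did not pass (limma adjusted p = 0.0751). Tk1, thymidine kinase, was above noise on 1 mdx and 3 control arrays.

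Of 28 genes tested from a further list of 48 replication and S phase genes, 3 rose and 0 fell by limma (3 and 3 at an unadjusted p under 0.05), where 16.1% of all genes tested rose and 18.6% fell. Their median log2 change was -0.04, as over all genes. They were Orc6, a subunit of the origin recognition complex, at 0.36 (limma adjusted p = 0.00436), Slbp, the histone messenger binding protein, at 0.36 (limma adjusted p = 0.0109), and the chromatin protein Rbbp4 at 0.33 (limma adjusted p = 0.0298). The call on Rbbp4 was lost under 7 of 22 alternatives, among them no filter and 5 of the 10 fits without an array.

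E2F sites are shown for the remaining 7 genes of the list that hold one, because E2F factors are known to act on replication genes, of which Mcm5, Mcm6, Mcm7 and Pola1 are here. None of the 7 was called higher by its brightest probe set in the filtered fit, in which Mcm7, Pola1 and Rbl1 were too dim to be tested. Promoters were found for 43 of the 51 genes, in 50 windows. Within the 250 bases before the start, 8 of 50 windows (16.0%) held an E2F site on either strand, against 1.53% of all 32851 promoter windows. Each line gives, on the strand of the gene, the site in capitals with 10 bases to each side. In Mcm5 and Mcm6 the capitals hold 2 overlapping sites, on opposite strands. There the 10 bases are counted from the first site, so the second reaches into them. Mcm6 holds a further site nearer its start that is not shown.
Mcm5: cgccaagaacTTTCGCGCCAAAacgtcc
Mcm6: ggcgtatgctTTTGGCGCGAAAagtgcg
Mcm7: atttcgaaccGCGGGAAAcagggtgtcc
Pola1: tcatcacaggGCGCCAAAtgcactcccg
Cdk2: accaggaactGCGGGAAAgttgtgcagc
Cdc25a: gtgaattccgTTTGGCGCcaactaggaa
Rbl1: agaaggcgatTTTCGCGCgctttgtcgc
On GRCm38.p6 these lie at chr8:75109346-75109373 on the plus strand for Mcm5, chr1:128359798-128359825 on the minus strand for Mcm6 and chr5:138172031-138172058 on the minus strand for Mcm7. The others lie at chrX:93632276-93632303 (minus) for Pola1, chr10:128705174-128705201 (minus) for Cdk2, chr9:109875502-109875529 (plus) for Cdc25a and chr2:157204535-157204562 (minus) for Rbl1. Of the 9 genes with a promoter that rose, 1, Cdk1, held an E2F site, and of the 34 others 7 did. CCAAT boxes stood before 7 of the 9 and 23 of the 34, TTTGAA elements before 3 and 8, and Sp1 boxes before 8 and 26. Over all promoter windows the shares were 33.8% for the CCAAT box, 16.0% for TTTGAA and 32.7% for the Sp1 box, against 64.0%, 24.0% and 72.0% of the windows of the cell cycle genes. A match describes the letters and not a bound site.

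Among genes of mitosis and chromosomes, 3 of 9 tested rose and 1 fell, where 16.1% of all genes tested rose and 18.6% fell. Of the 3, Stmn1 and Hmgb2 passed the filter only through their mdx arrays. Stmn1, on chromosome 4, encodes stathmin, which destabilises microtubules and is also made in neurons and leukocytes. It gave 213, 303, 504, 804 and 232 in mdx and -106, -136, -88.2, 33.1 and -67.2 in control. The mdx arrays differed widely among themselves yet were all above noise, and Stmn1 was at least 2.30-fold higher (log2 change 0.99, SE 0.17, limma adjusted p = 0.000611). Its other probe set was below noise on all arrays. Hmgb2, on chromosome 8, a chromatin protein abundant in dividing cells, gave 366, 159, 450, 381 and 205 in mdx and 70.7, 84.5, 16.7, 112 and 108 in control. It was at least 1.85-fold higher, again against the noise level (log2 change 0.59, SE 0.13, limma adjusted p = 0.00345). Mad2l1, on chromosome 6, a protein of the spindle checkpoint, gave 174, 184, 285, 243 and 217 in mdx and 116, 191, 104, 73.8 and 130 in control. It passed narrowly (log2 change 0.26, SE 0.09, limma adjusted p = 0.0442), and the call was lost under 11 of 21 alternatives, 8 of them fits without an array, with the highest adjusted p = 0.111 under quantile normalization.

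Aurka, on chromosome 2, encodes the Aurora A kinase of the spindle poles. It gave 251, 231, 190, 231 and 286 in mdx and 516, 436, 309, 531 and 427 in control. No mdx array reached the control range, and the mean was 0.536 times that of control (log2 change -0.41, SE 0.10, limma adjusted p = 0.0055). With scaling to the hybridization controls it stood at -0.12 (adjusted p = 0.411), 0.47 below the median of all probe sets there. Aurkb, the related Aurora B kinase, was below 0 on all 10 arrays.

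Several standard markers of dividing cells did not pass or were not measurable. Mki67, the Ki-67 antigen, averaged 313 ± 138 in mdx and 224 ± 70.2 in control by its brighter probe set (log2 change 0.18, limma adjusted p = 0.367). Its dimmer probe set read 94.3, 150, 164, 208 and 1.83 in mdx and -25.3, -10.3, -46.0, -13.7 and -46.5 in control. All mdx arrays were above all control arrays there, with 2 mdx arrays and 0 control arrays above noise. The probe set rose in the fit with no filter (log2 change 0.40, limma adjusted p = 0.026), where 10.3% of all probe sets of 1 gene rose. Top2a, the topoisomerase of mitosis, and Bub1, a checkpoint kinase, were below noise on all arrays. Birc5, survivin, averaged 250 ± 89.6 in mdx and 137 ± 46.1 in control (log2 change 0.28, limma adjusted p = 0.0782, or 0.0168 without mdx replicate 1). Plk1, a mitotic kinase, averaged 601 ± 107 in mdx and 381 ± 458 in control, where replicate 3 was at -427 (limma adjusted p = 0.381). Cdc20, an activator of the anaphase-promoting complex, averaged 471 ± 221 in mdx and 414 ± 58.7 in control, and Bub3, a checkpoint protein, 2894 ± 102 in mdx and 2774 ± 317 in control, and neither passed. Of 21 tested genes of a further list of 48 mitotic genes, 1 rose and 0 fell by limma (3 and 1 at an unadjusted p under 0.05), with a median log2 change of 0.04. Over all genes tested 16.1% rose and 18.6% fell, with a median of -0.04. The mitotic gene that rose was Smc4, a condensin subunit, at 603 ± 79.9 in mdx and 288 ± 52.2 in control (log2 change 0.56, limma adjusted p = 0.000505).

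The share of cell cycle genes above noise differed between the groups. By brightest probe set, 35 to 38 of the 51 genes were above 157 on mdx arrays and 27 to 33 on control arrays. These are 68.6% to 74.5% in mdx and 52.9% to 64.7% in control, while over all 8251 genes the shares were 65.9% to 68.0% in mdx and 64.7% to 65.4% in control. By gene, 19 were above noise on all 10 arrays, 3 on all mdx and 0 control arrays, and 6 on all mdx and 1 to 4 control arrays, Ccna2, Ccne1, Rb1, Rrm2, Plk1 and Mad2l1. The reverse held for 4 genes, Cdc25a, Rbl2, Mcm6 and Cdc20, which were above noise on all control arrays but not on every mdx array. No array of either group was above noise for 8 genes, Ccnd2, Cdkn2b, Mcm4, Pola1, Prim1, Top2a, Aurkb and Bub1. These patterns by gene were not counted over all genes. For mitosis and chromosome genes the groups did not overlap, with 7 to 9 of 12 above noise in mdx and 4 to 6 in control. Neither did the groups overlap in the share over all 8251 genes. For replication fork genes they overlapped, with 4 to 5 of 10 in mdx and 4 to 6 in control.

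**Figure D4:**
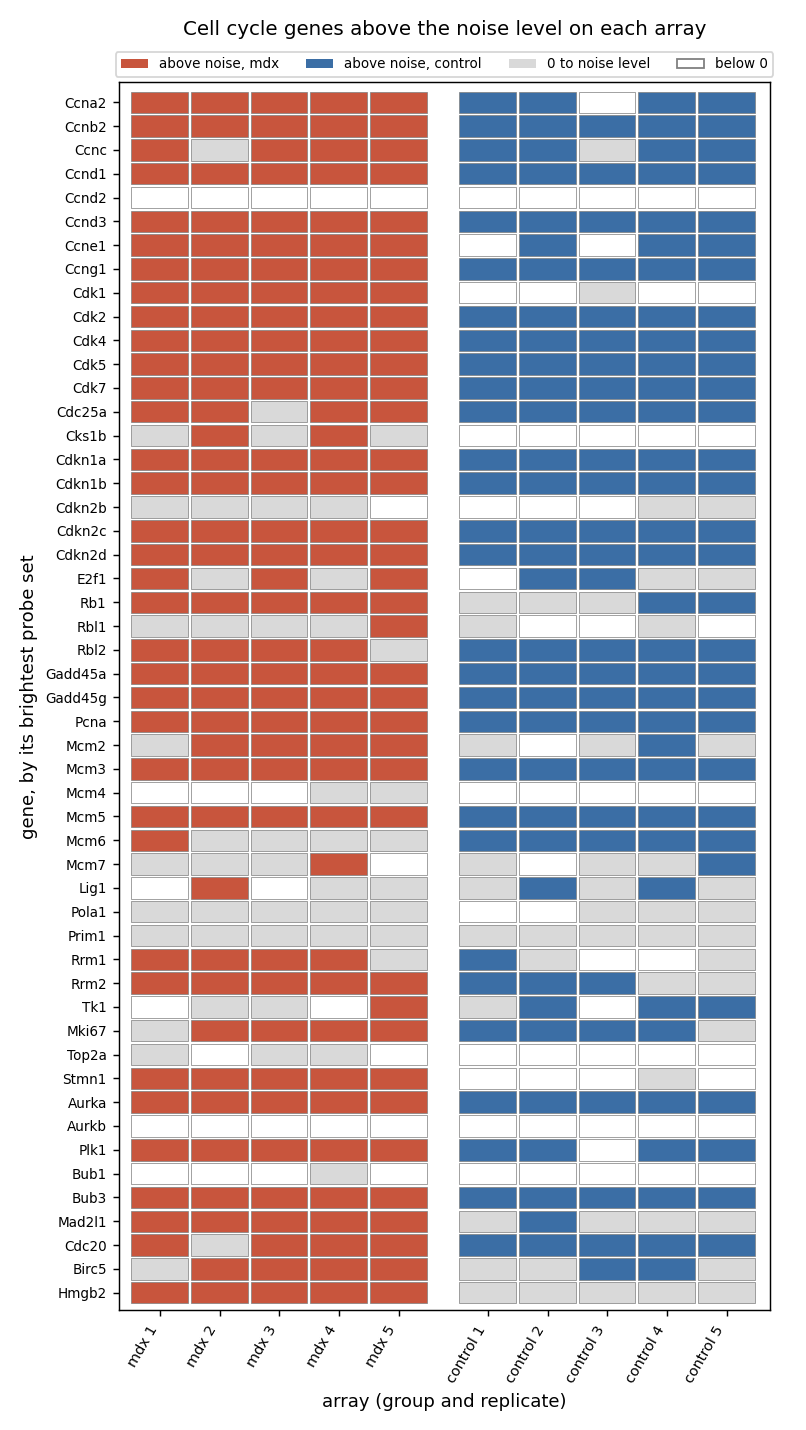
Each of the 51 cell cycle genes (rows, brightest probe set) on each of the 10 arrays (columns), mdx left of control. Filled cells are above the noise level of 157, grey cells between 0 and that level and white cells below 0, and 35 to 38 cells are filled in each mdx column and 27 to 33 in each control column.

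The rises were not equally firm. Ccnd3, Cdkn1a, Cdk1, Stmn1, Pcna, Ccnb2, Ccnd1, Gadd45a and Hmgb2 kept their call under every alternative in which they were tested, and Rb1, Rrm2 and Mad2l1 lost it under several. Cdk1, Stmn1 and Hmgb2 could pass the filter only as genes higher in mdx, though they were also called with no filter. With a filter on the mean intensity, Ccnd3, Cdk1, Stmn1, Hmgb2, Rb1, Rrm2 and Mad2l1 were not tested. The 5 genes called higher there were Cdkn1a, Pcna, Ccnb2, Ccnd1 and Gadd45a. Leaving out each array in turn gave 9 to 13 genes called higher and 2 called lower. Mdx replicate 1 was the lowest mdx array for 8 of the 12 genes that rose. That array was also the dimmest of the series, with a trimmed mean of 723 where the others had 801, and without it 13 rose.

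**Figure D5:**
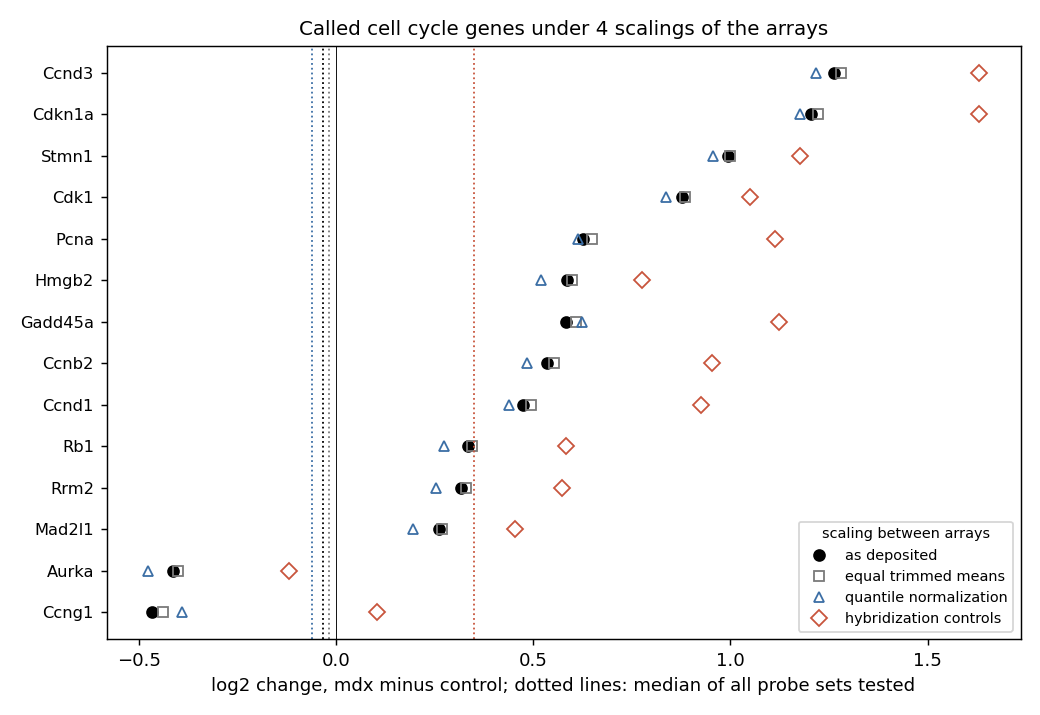
Log2 change, mdx minus control, of the 14 called cell cycle genes under 4 scalings of the arrays, with the median of all probe sets tested as a dotted line in the same colour. The 12 rises stay above 0 under each, and under scaling to the hybridization controls, where the median of all probe sets is 0.35, Aurka stands at -0.12 and Ccng1 at 0.10.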

How the data were processed

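The deposited values are probe set intensities, background subtracted, and the software and scaling that the authors used are not given in the sources used here. Trimmed means (2% from each end) were 801 on 9 arrays and 723 on mdx replicate 1, 9.70% from the median array, and the scaling was kept. Of 12488 probe sets, 66 controls were left out. Platform annotation gave 10833 probe sets 1 gene, 396 several and 1193 none, and 0 symbols changed through the table of assembly GRCm38.p6. With values below 0 set at 0, the log2(intensity + 373) was used, where 373 is the root mean square of the 27483 values below 0. The noise level of 157 is the median size of those values over the normal quartile, chosen after the values were seen. Testing required 5 or more of the 10 arrays above 134, the value that 40% of all readings lie under.

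Limma 3.58.1 in R 4.3.3 (lmFit, eBayes with a variance trend, two-sided) was fitted over 7612 probe sets, with Benjamini-Hochberg adjustment and a threshold of 0.05. The brightest probe set stands for a gene. Where all arrays of a group were below noise, the fold is the other group's geometric mean over the noise level. Probe sets of Cdkn1b, Mcm5, Mki67 and Hmgb2 (suffix r), Mcm3 (s), E2f1 (f) and Plk1 (g) were designed under relaxed rules or can share probes with similar transcripts. The fit was tested on simulated data. Values were named for called genes, D cyclins and inhibitors, and for at most 4 called genes per further list with the smallest p. Members and lists were chosen with earlier results of these data known. Alternatives covered the offset, clipping, filter, scaling, variance model, replicate block, single arrays and probe set choice. The number of arrays limits the precision.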

Additional observations from a re-analysis of the deposited data

Results flagged for a closer look

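In 8 of 102 groups of 5 arrays (51 genes in each group of mice), the highest or lowest array stood apart, with a gap to its nearest neighbour above 0.71 of the range of the group. Chance gives about 1 in 20 groups. Control replicate 2 accounted for 4 of the 8. It was the lowest control array for Mcm5, at 409 against 2200 to 2626 on the others (gap 0.808 of the range), and for Cdkn2c, at 1651 against 2063 to 2170 (0.793). It was the highest for Lig1, at 351 against 106 to 159 (0.782), and for Aurkb, at -2.39 against -891 to -697 (0.782). Leaving it out turned the log2 change of Mcm5 to -0.068, against 0.29 with it, and Mcm5 passed the test in neither fit.

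Control replicate 1 was the highest control array for Cdkn1a, at 684 against 402 to 478 (0.731), and the lowest mdx array was at 1278. Control replicate 3 was the lowest for Plk1, at -427 against 504 to 697 (0.828). Mdx replicate 4 was the highest mdx array for Bub1, at 49.0 against -16.2 to -6.84 (0.856), all below noise, and mdx replicate 3 the highest for Bub3, at 3074 against 2824 to 2869 (0.821).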

How the results depend on the processing

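Among all probe sets tested, 2554 were called, and 1830 to 3687 under the alternatives (2269 to 2483 without an array). The 12 cell cycle genes called higher were 5 with a filter on the mean, where 12 of the cell cycle probe sets remained tested, and 25 with scaling to the hybridization controls. The 2 called lower were 1 and 0 under these settings. Other alternatives gave 9 to 13 higher and 2 to 3 lower. Scaling to the hybridization controls moved the median change of all probe sets to 0.35, with 96.6% of calls higher against 47.1% as deposited. It turned Ccng1 to 0.10, Ei24 to 0.16, and the uncalled Ccnc to 0.19, Cdk7 to 0.10, Cdkn1b to 0.15, Cdkn2c to 0.43, Cdkn2d to 0.32, Rbl2 to 0.11, Gadd45g to 0.058 and Mcm6 to 8.39e-06. Quantile normalization turned the uncalled Cdc25a to -0.039. Without an array, the uncalled Ccnc lay between -0.10 and 0.032, Cdk2 between -0.015 and 0.25, Cdc25a between -0.11 and 0.17, Mcm5 between -0.068 and 0.42 and Cdc20 between -0.032 and 0.22. The cause of these shifts was not tested. The noise level of 157 as the offset, added after the values were seen, gave 2520 calls, with 12 higher and 2 lower. Replicate numbers shared by the titles did not pair the arrays (correlations of -0.16 to 0.04 between same-numbered arrays, 0 of 5 above 0.1). With the replicate block 2238 probe sets were called, and 11 cell cycle genes higher and 2 lower. The block ended the calls on Rrm2 (adjusted p = 0.0689), Mad2l1 (0.104), Cdkn2a (0.0733) and Rbbp4 (0.0523), gave one for Ccne1 (0.021), and changed no other call on a named gene. Signal over background limited 13 of the 51 genes, which were too dim to test.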

Other observations

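From a list of 8 satellite cell and myoblast markers, 6 were tested. Of these 3 rose and 3 did not pass, where 16.1% of all genes tested rose. The 3 that rose are named here after their values were seen. Myog, myogenin, gave 2510, 1846, 2401, 2551 and 2335 in mdx and 942, 482, 725, 367 and 342 in control (log2 change 1.55, limma adjusted p = 1.25e-05). Myod1, the factor that commits cells to muscle, gave 2000, 2823, 2805, 3685 and 2681 in mdx and 1551, 1314, 1314, 1362 and 1287 in control (log2 change 0.85, limma adjusted p = 0.00015). Vcam1, an adhesion molecule of satellite cells and endothelium, gave 380, 388, 377, 410 and 343 in mdx and 50.1, 56.4, 90.4, -11.0 and 89.4 in control (at least 2.42-fold higher, limma adjusted p = 1.35e-05). The groups did not overlap for any of the 3. Over all genes tested, every mdx array lay above every control array for 12.7%. Vcam1 passed the filter only through its mdx arrays, so it could enter the test only as higher in mdx with no overlap. It kept its call under all 21 alternatives in which it was tested.

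Probe sets that averaged below 0 over the 10 arrays were read less far below 0 in mdx. Among the cell cycle probe sets this held for 15 of 17, with a median difference of 121 between the group means, and among all probe sets below 0 for 65.4% of 2629, with a median difference of 21.7.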
